A study of Mus musculus with 12 samples.

Results

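Of the 20886 genes that could be named on the array, 8 are described here, the tumour suppressor Trp53 (p53), its targets Mdm2, Cdkn1a (p21), Ccng1 and Gdf15, the senescence-linked inhibitors Cdkn2a (p16 and p19Arf) and Cdkn2b (p15), and Glb1, the lysosomal beta-galactosidase. They were picked by name, because the study concerns ageing. No measured value entered the rule, but earlier results of these data were known when they were chosen. They were found through the transcript accession of each probe, which gave 11 of the 39429 probes. Trp53, Mdm2, Ccng1, Gdf15 and Glb1 each had 1 probe, and Cdkn1a, Cdkn2a and Cdkn2b each had 2. Liver RNA was taken from C57BL/6N females, bought at 6 weeks of age, acclimated for 2 weeks and then fed a diet for 6 months, with 3 mice in each of 4 groups and 1 array per mouse. Ctrl mice ate a normal formula diet whose carbohydrate was corn starch with sucrose, and RS mice ate the same diet with resveratrol added. In DJ mice, rice of the variety Dongjin stood in for the starch and sucrose, and in DJ526 mice that place was taken by DJ526, a resveratrol-making Dongjin line carrying a stilbene synthase gene from peanut. Mice were caged together and whole cages were given to a diet, and no label ties an array to a cage, so p-values measure the spread between the mice sampled.

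Trp53, Mdm2, Ccng1 and Glb1 were at nearly the same level in all 4 groups, with no difference between 2 groups above 0.20 on the log2 scale. The brighter Cdkn1a probe differed 16.8-fold between 2 mice of the Ctrl group, more than between any groups. The dimmer Cdkn1a probe averaged 0.69 lower in RS and 0.62 lower in DJ than in Ctrl and 0.33 higher in DJ526, without overlap of the mice, at signals close to the background of the array. Mice did not overlap in these comparisons for 10.2%, 9.34% and 20.6% of all probes. In none of 9 comparisons did limma call any of the 11 probes at a Benjamini-Hochberg adjusted p under 0.05 taken over all probes. At an unadjusted p under 0.05, 2 of the 11 passed for RS against Ctrl (6.00% of all probes), 1 for DJ against Ctrl (5.22%) and 0 for DJ526 against Ctrl (10.8%). For DJ526, 1 passed against DJ (9.81%) and 1 against RS (5.50%). All of these were Cdkn1a or Cdkn2b probes.

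The p53 protein is a transcription factor that is held at a low level by Mdm2, a ubiquitin ligase that marks it for degradation and is itself switched on by p53. After DNA damage and other stresses p53 is stabilised mainly at the protein level, so its activity is usually read from target transcripts rather than from its own. Cdkn1a, the best known of these targets, encodes the cyclin-dependent kinase inhibitor p21, which stops the cell cycle, and hepatocytes raise it during regeneration, fasting and injury as well as in senescence. Cdkn2a and Cdkn2b lie side by side and encode inhibitors of Cdk4 and Cdk6 that act through the retinoblastoma protein, and their transcripts are widely used as markers of senescent cells. Glb1 encodes the enzyme behind the senescence-associated beta-galactosidase stain.

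Because the Cdkn1a probes gave the largest differences, the promoter windows of that gene are shown. RefSeq (GRCm38.p6) lists start sites 2790 bases apart for Cdkn1a, which spans chr17:29090979-29100722. Each window runs from 250 bases before a start site to 50 bases after it, on the plus strand, 5′ to 3′. Capitals mark a match to CATGNNNNNNCATG, the core spacing of a p53 response element, which reads the same on both strands.

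Cdkn1a, upstream start (chr17:29090729-29091028): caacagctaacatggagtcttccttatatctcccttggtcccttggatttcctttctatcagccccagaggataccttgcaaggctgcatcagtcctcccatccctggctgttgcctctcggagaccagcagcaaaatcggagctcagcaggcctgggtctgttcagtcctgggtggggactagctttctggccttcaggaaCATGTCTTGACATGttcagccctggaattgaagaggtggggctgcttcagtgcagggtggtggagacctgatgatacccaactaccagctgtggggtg
Cdkn1a, downstream start (chr17:29093519-29093818): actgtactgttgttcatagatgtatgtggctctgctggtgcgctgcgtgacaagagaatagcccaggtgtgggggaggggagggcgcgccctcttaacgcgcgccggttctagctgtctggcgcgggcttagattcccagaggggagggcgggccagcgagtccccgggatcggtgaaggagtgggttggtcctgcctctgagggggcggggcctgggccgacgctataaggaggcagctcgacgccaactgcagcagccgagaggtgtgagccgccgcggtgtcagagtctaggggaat

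The match lay at chr17:29090931-29090944 in the upstream window, with its last base 35 bases before the start site, and the downstream window held none. Of all 32851 promoter windows of this length in the table, 234 (0.712%) held the motif. Among the members, 1 of the 11 windows held it, and none of the 28 windows of 21 other p53 target genes did. Only exact matches within these 300 bases were counted, so the counts do not show which genes lack a p53 site. The brighter Cdkn1a probe, A_51_P363947, was designed to the transcript NM_007669 and the dimmer one, A_55_P1986282, to NM_001111099, and the tables used here do not say which transcript starts at which site. The other members lie on chromosomes 11 (Trp53 and Ccng1), 10 (Mdm2), 8 (Gdf15), 4 (Cdkn2a and Cdkn2b) and 9 (Glb1).

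Levels below are log2 signals relative to the 75th percentile of the same array, so that 0 is the brightness of that percentile, which lay between 953 and 1167 signal units. They compare mice for 1 probe and not 1 probe with another. Between 73.0% and 80.8% of spots were well above background on an array. All 8 hepatocyte markers were well above background on every array, with a summed level of 10.86 to 11.11 in all 12 livers. Each slide held 4 arrays. Slide 1 carried the 3 Ctrl mice and DJ replicate 1, slide 2 DJ replicates 2 and 3 with RS replicates 1 and 2, and slide 3 RS replicate 3 with the 3 DJ526 mice. Diet and slide were therefore nearly the same thing, and values with the slide as a block in the fit, or within a slide, are given for the genes whose differences from Ctrl moved most. Block values against Ctrl rest on DJ replicate 1, and those of DJ526 against Ctrl also on RS replicate 3. They are less precise. For DJ526 against Ctrl the SE rose from 0.12 to 0.27 for Trp53 and from 0.81 to 2.11 for the brighter Cdkn1a probe. In a supplementary sample table the array identifiers of RS and DJ are exchanged relative to the array labels. The labels were followed, and an exchange would swap the RS and DJ values given here.

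Trp53 held the steadiest level of the 8 genes. Ctrl mice measured -3.12, -3.37 and -3.27, RS mice -3.30, -3.25 and -3.25, DJ mice -3.32, -3.17 and -3.27, and DJ526 mice -3.38, -3.18 and -3.27. The 4 groups overlapped fully, and the whole spread over 12 livers was 1.20-fold. Its SD within groups was 0.0894, and 10.6% of the 27285 probes well above background on all 12 arrays had a smaller one. The difference from Ctrl was -0.01 in RS (95% interval -0.27 to 0.25), -0.00 for DJ (-0.26 to 0.26) and -0.03 for DJ526 (-0.29 to 0.23).

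Mdm2, the ligase that degrades p53 and a p53 target itself, averaged 1.77 ± 0.18 for Ctrl, 1.78 ± 0.17 for RS, 1.85 ± 0.02 for DJ and 1.66 ± 0.26 for DJ526 (mean ± SD, n = 3 each). DJ526 replicate 3 was the lowest liver at 1.36 and RS replicate 2 the highest at 1.97, and the groups overlapped. The largest difference, DJ526 against DJ, was -0.19 (SE 0.14, limma adjusted p = 0.655).

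**Figure D1:**
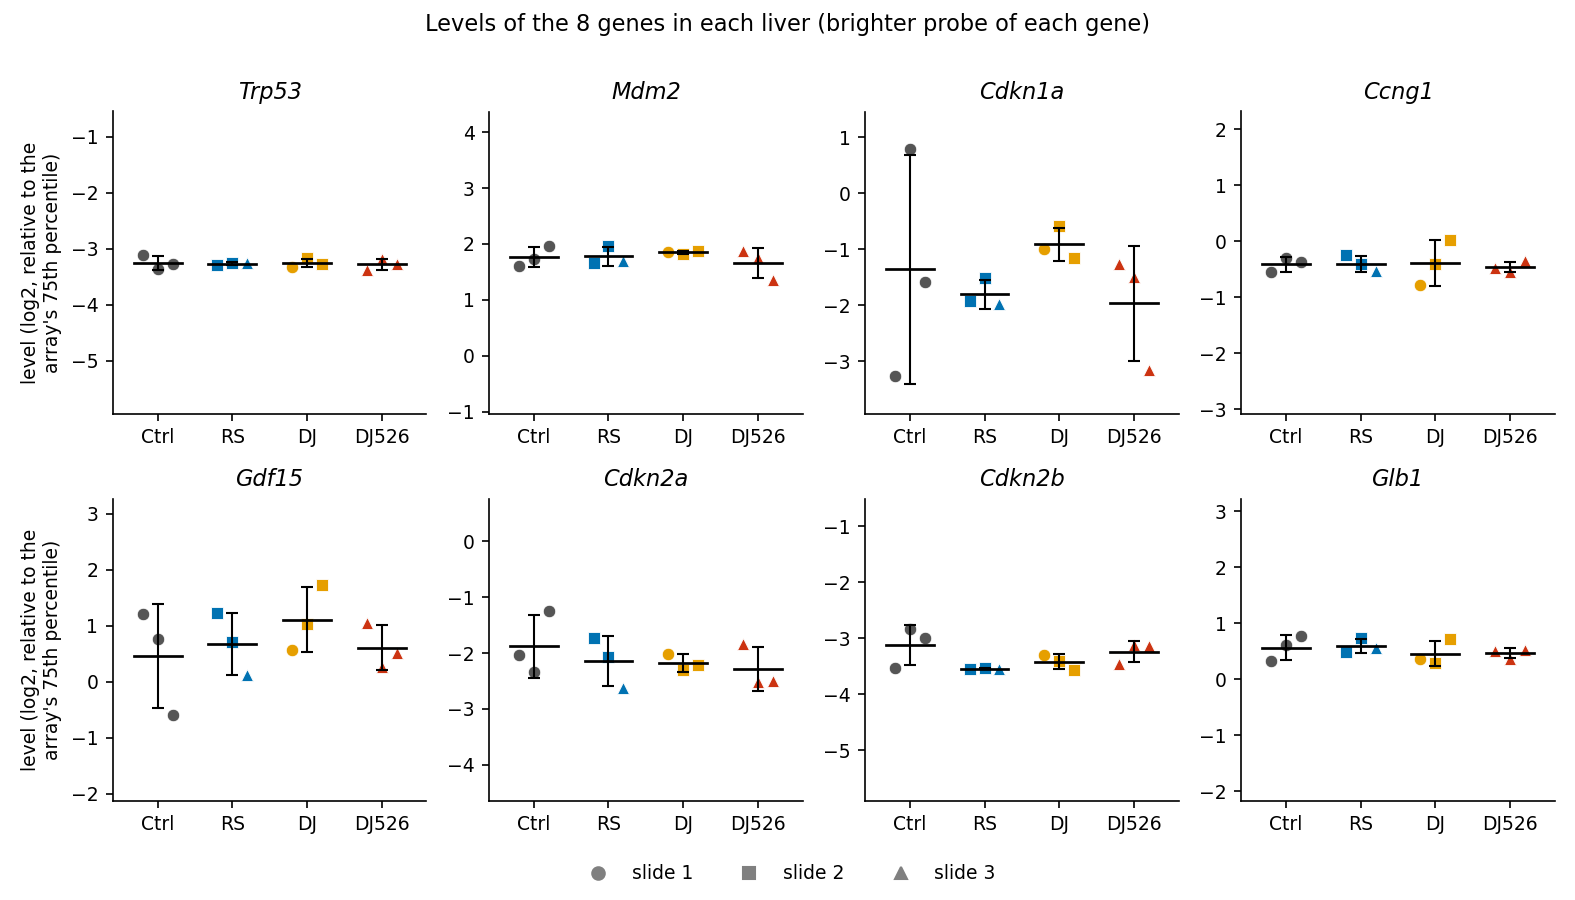
Levels of Trp53, Mdm2, Cdkn1a, Ccng1, Gdf15, Cdkn2a, Cdkn2b and Glb1 in 12 livers, in log2 units relative to the 75th percentile of each array, for the brighter probe of each gene. Points are mice, their shape is the slide, the horizontal line is the group mean and the bar its SD, and all panels span the same number of log2 units, so the wide spread of Cdkn1a within Ctrl (-3.28 to 0.79) can be set beside the narrow one of Trp53 (-3.37 to -3.12).

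The brighter Cdkn1a probe reads p21, the p53-driven inhibitor of cyclin-dependent kinases. The Ctrl mice measured -3.28, 0.79 and -1.59, RS mice -1.92, -1.52 and -1.99, DJ mice -1.0, -0.58 and -1.16, and DJ526 mice -1.27, -1.49 and -3.16. Ctrl replicate 2 was the highest of the 12 livers and Ctrl replicate 1 the lowest, so every other group lay inside the range of Ctrl. That range, 4.07 log2 units or 16.8-fold, was exceeded within Ctrl by 18 of the 27285 probes (0.0660%). The array carries 10 copies of this spot, and their coefficient of variation on 1 array was 2.38% to 9.05%, so the spots of each array gave nearly the same value. In Ctrl replicate 1 the copies read 96.7 to 121 signal units and in Ctrl replicate 2 they read 1768 to 1973.

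With that spread, the brighter Cdkn1a probe differed from Ctrl by -0.45 ± 0.81 for RS, 0.44 ± 0.81 for DJ and -0.61 ± 0.81 for DJ526 (log2 fold change ± SE, limma adjusted p = 1.00, 1.00 and 0.818). Their signs rested on single Ctrl mice. Without Ctrl replicate 2 they were 0.62, 1.52 and 0.46, and without Ctrl replicate 1 they were -1.41, -0.52 and -1.57. By group mean the order was DJ, Ctrl, RS and DJ526, and no pair of neighbours in that order passed the test. The DJ mice lay above all RS mice (difference 0.90 ± 0.81, adjusted p = 1.00) and above all DJ526 mice (DJ526 against DJ, -1.06 ± 0.81, adjusted p = 0.683). On slide 2, which held both diets, the 2 DJ mice were 0.85 above the 2 RS mice. Mice without overlap between DJ and RS were found for 6.34% of all probes, and between DJ526 and DJ for 18.4%.

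The dimmer Cdkn1a probe, designed to the other transcript and spotted once, followed another pattern. Ctrl mice measured -5.69, -5.78 and -5.89, RS mice -6.81, -6.58 and -6.05, DJ mice -6.09, -6.36 and -6.76, and DJ526 mice -5.59, -5.51 and -5.28. All RS and DJ mice were below every Ctrl mouse, and all DJ526 mice were above every mouse of the other 3 groups. RS against Ctrl was -0.69 (SE 0.25, unadjusted p = 0.0183 and adjusted p = 0.717 from limma), DJ against Ctrl -0.62 (adjusted p = 0.938) and DJ526 against Ctrl 0.33 (adjusted p = 0.659). DJ526 stood 0.94 above DJ (adjusted p = 0.280) and 1.02 above RS (adjusted p = 0.363). Over the 12 mice the brighter and the dimmer probe had a Pearson r of -0.24 and a Spearman rho of -0.24, given as a description.

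The values of the dimmer probe differed between slides within a diet. The mice on slide 2 were the lowest of their diets, and DJ replicate 1 on slide 1 and RS replicate 3 on slide 3 were the highest of DJ and RS. Within slide 1, DJ replicate 1 was 0.30 below the Ctrl mean, and within slide 3, the DJ526 mean was 0.59 above RS replicate 3. With the slide as a fixed block, the differences were -0.43 for RS against Ctrl, -0.30 for DJ against Ctrl, 0.46 for DJ526 against DJ and 0.59 for DJ526 against RS (adjusted p from 0.628 to 0.846). The block values of DJ against Ctrl and DJ526 against RS are the within-slide differences again and not a second estimate. The spot's median pixel was 44 to 67 signal units over a local background of 19 to 28.5. After normexp background correction with an offset of 50, which is larger than the net signal of this spot and so draws differences toward 0, RS against Ctrl was -0.18, DJ against Ctrl -0.01, DJ526 against DJ 0.04 and DJ526 against RS 0.21.

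**Figure D2:**
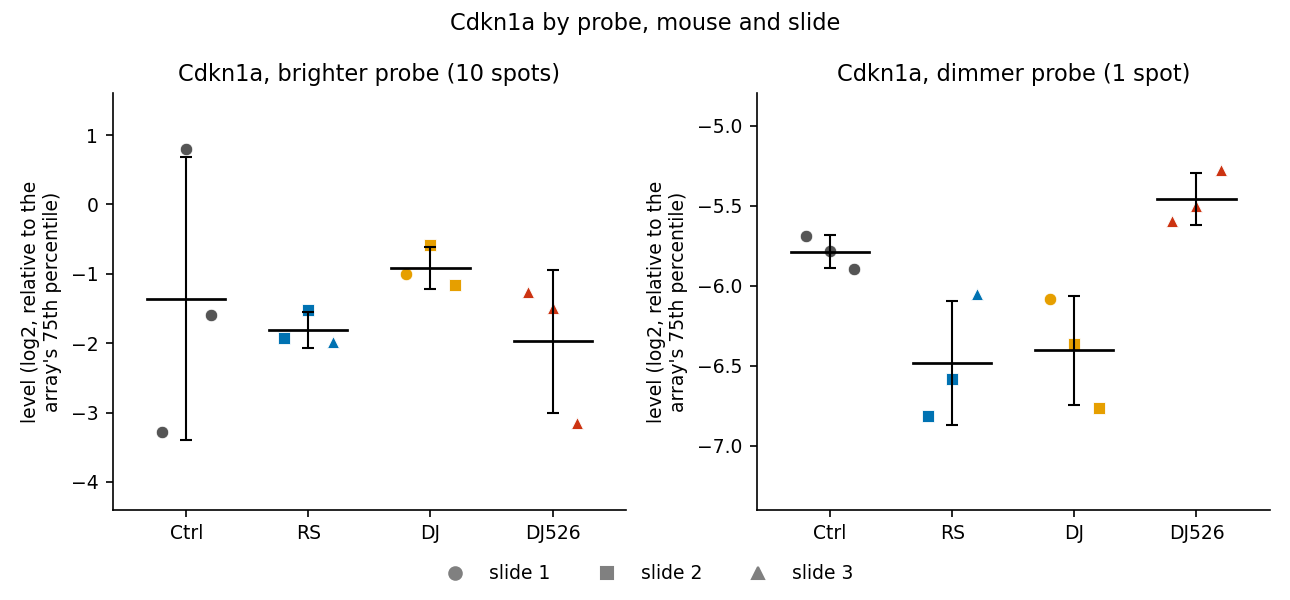
Levels of the 2 Cdkn1a probes in each liver, in log2 units relative to the 75th percentile of the array. Points are mice, their shape is the slide, lines are group means and bars are SD (n = 3). The brighter probe spans 4.07 units within Ctrl alone, and the dimmer probe is at -5.59 or higher in every DJ526 mouse and at -6.05 or lower in every RS and DJ mouse.

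Ccng1, the p53 target that encodes cyclin G1, had group means of -0.41 ± 0.13 for Ctrl, -0.40 ± 0.14 for RS, -0.39 ± 0.41 for DJ and -0.46 ± 0.09 for DJ526 (mean ± SD, n = 3). DJ held both the lowest liver, replicate 1 at -0.79, and the highest, replicate 3 at 0.03. RS differed from Ctrl by 0.01 (95% interval -0.37 to 0.39), DJ by 0.02 (-0.36 to 0.40) and DJ526 by -0.05 (-0.43 to 0.33). With the slide as a block the values were -0.52, -0.38 and -0.44 (adjusted p = 0.502, 0.544 and 0.593). The DJ value is the difference on slide 1 between DJ replicate 1, at -0.79, and the Ctrl mean of -0.41.

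Gdf15, a secreted stress hormone that p53 and the integrated stress response both switch on, varied widely among mice of each diet. Ctrl mice measured 1.21, 0.76 and -0.59, RS mice 1.22, 0.71 and 0.11, DJ mice 0.57, 1.03 and 1.74, and DJ526 mice 1.05, 0.27 and 0.51. Ctrl replicate 3 was the lowest of the 12 livers and DJ replicate 3 the highest, and all groups overlapped. Its SD within groups, 0.649, was larger than that of 96.4% of the 27285 probes. RS differed from Ctrl by 0.22, DJ by 0.65 and DJ526 by 0.15 (SE 0.46 each, adjusted p = 1.00, 0.998 and 0.927). Without Ctrl replicate 3 the values were -0.31 for RS, 0.13 for DJ and -0.38 for DJ526, and within slide 1 DJ was 0.11 above Ctrl. The slide block gave -0.31 for RS and 0.19 for DJ526, and for DJ the same 0.11, which rests on DJ replicate 1. By group mean the order was DJ, RS, DJ526 and Ctrl, and no neighbours in it differed beyond their spread.

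Cdkn2a encodes p16Ink4a and p19Arf, an inhibitor of Mdm2, from overlapping transcripts, and both of its probes carried the same accession. Without probe sequences it could not be told whether a probe reads 1 transcript or both. On the brighter probe Ctrl mice measured -2.04, -2.35 and -1.25, RS mice -1.73, -2.06 and -2.62, DJ mice -2.01, -2.31 and -2.21, and DJ526 mice -1.84, -2.52 and -2.50. The mean of Ctrl was the highest, through replicate 3, and the groups overlapped. The differences from Ctrl were -0.26, -0.30 and -0.40 (SE 0.30, adjusted p = 0.987, 1.00 and 0.651). With the slide as a block the RS and DJ526 values became 0.23 and 0.57. The dimmer probe was well above background on 9 of 12 arrays, ranged from -8.18 to -5.18 and differed from Ctrl by 0.37, -0.69 and -0.35 (SE 0.61). Its slide block values were -1.34, -1.91 and -1.79 (limma adjusted p = 0.725, 0.447 and 0.601), with an unadjusted p of 0.0298 for DJ.

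Cdkn2b, the neighbour that encodes the Cdk4 and Cdk6 inhibitor p15Ink4b, was read by a brighter and a dimmer probe. On the brighter one Ctrl mice measured -3.53, -2.84 and -2.99, RS mice -3.54, -3.53 and -3.56, DJ mice -3.29, -3.40 and -3.56, and DJ526 mice -3.45, -3.11 and -3.14. The 3 RS mice were within 0.03 of each other and below all Ctrl and DJ526 mice. The nearest was Ctrl replicate 1, at -3.528 beside -3.529 for RS replicate 2, so the lack of overlap with Ctrl was marginal. Mice did not overlap for 10.2% of all probes in RS against Ctrl and 11.1% in DJ526 against RS. RS against Ctrl was -0.42 (SE 0.18, unadjusted p = 0.0388, adjusted p = 0.802), DJ against Ctrl -0.30 and DJ526 against Ctrl -0.12. The dimmer probe of the same transcript, well above background on 11 arrays, gave 0.10, 0.10 and 0.13, so the probes did not share a direction in these comparisons. With the slide as a block the brighter probe gave -0.23 for RS, -0.17 for DJ and 0.09 for DJ526 against Ctrl.

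Glb1, the lysosomal beta-galactosidase, averaged 0.56 ± 0.22 for Ctrl, 0.59 ± 0.13 for RS, 0.46 ± 0.23 for DJ and 0.46 ± 0.09 for DJ526 (mean ± SD, n = 3). Its 12 livers lay between 0.29 and 0.76, a 1.39-fold range, and the groups overlapped. RS differed from Ctrl by 0.03 (95% interval -0.27 to 0.32), DJ by -0.11 (-0.41 to 0.19) and DJ526 by -0.10 (-0.40 to 0.19).

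Across the whole array few probes were called either. Limma called 0 of 11 members and 0% of all probes for RS against Ctrl, for DJ against Ctrl and for DJ against RS, 0 of 11 and 0.00507% for DJ526 against Ctrl, 0 of 11 and 0.0101% for DJ526 against DJ, and 0 of 11 and 0.00761% for DJ526 against RS. The counts were also 0 of 11 beside 0% for the rice diets against starch and sucrose, for the resveratrol diets against those without, and for the difference of the resveratrol effects (DJ526 minus DJ, less RS minus Ctrl). At an unadjusted p under 0.05 the background was 6.00% for RS against Ctrl, 5.22% for DJ against Ctrl, 10.8% for DJ526 against Ctrl, 9.81% for DJ526 against DJ, 5.50% for DJ526 against RS and 3.52% for DJ against RS, where 0 members passed. Mice did not overlap in RS against Ctrl for 2 members, both lower (10.2% of all probes in either direction), in DJ against Ctrl for 1 (9.34%), in DJ526 against Ctrl for 1 (20.6%), in DJ526 against DJ for 2 (18.4%), in DJ526 against RS for 2 (11.1%) and in DJ against RS for 2 (6.34%). Read by the brighter probe, the 8 genes had a median difference from Ctrl of -0.00 for RS, 0.01 for DJ and -0.11 for DJ526, beside 0.03, -0.02 and 0.02 over all probes.

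Other criteria stand in the study's methods, among them a Z ratio beyond 1.5. Without adjustment, at 0.05, the methods' t-test picked 1 of 11 members for RS against Ctrl (5.01% of all probes), 1 for DJ against Ctrl (4.62%), 1 for DJ526 against Ctrl (12.8%), 1 for DJ526 against DJ (10.8%), 2 for DJ526 against RS (6.13%) and 1 for DJ against RS (2.78%). The Z ratio criterion, with its own p under 0.05, picked 1 member for RS against Ctrl (1.69% of all probes), 1 for DJ against Ctrl (1.37%), 0 for DJ526 against Ctrl (3.87%), 1 for DJ526 against DJ (3.79%), 1 for DJ526 against RS (2.04%) and 1 for DJ against RS (1.07%). These were the dimmer Cdkn1a probe, except the brighter Cdkn1a probe in DJ against RS, and the methods' t-test picked the brighter Cdkn2b probe as well in DJ526 against RS.

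The difference of the resveratrol effects passed an unadjusted p under 0.05 for 2 of 11 members, beside 6.09% of all probes. It was 1.64 for the dimmer Cdkn1a probe (SE 0.35, adjusted p = 0.428) and 0.60 for the brighter Cdkn2b probe (SE 0.26, adjusted p = 0.797). Blocking on slide gave 0.89 (adjusted p = 0.755) and 0.49 (adjusted p = 0.832). In the same comparison the brighter Cdkn1a probe gave -0.60 (SE 1.15) and the dimmer Cdkn2b probe -0.07 (SE 0.45), so neither gene's probes shared a direction. Gdf15 gave -0.72 (SE 0.64), and the brighter and dimmer Cdkn2a probes 0.15 and -0.03. Trp53 gave -0.01, Mdm2 -0.20, Ccng1 -0.07 and Glb1 -0.02, and with the slide block 0.04, -0.12, 0.46 and 0.11. For the rice diets against starch and sucrose the lowest adjusted p of a member was 0.975, and for the resveratrol diets against those without it was 0.691. At an unadjusted p under 0.05, 0 members passed in either, beside 4.57% and 10.1% of all probes.

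**Figure D3:**
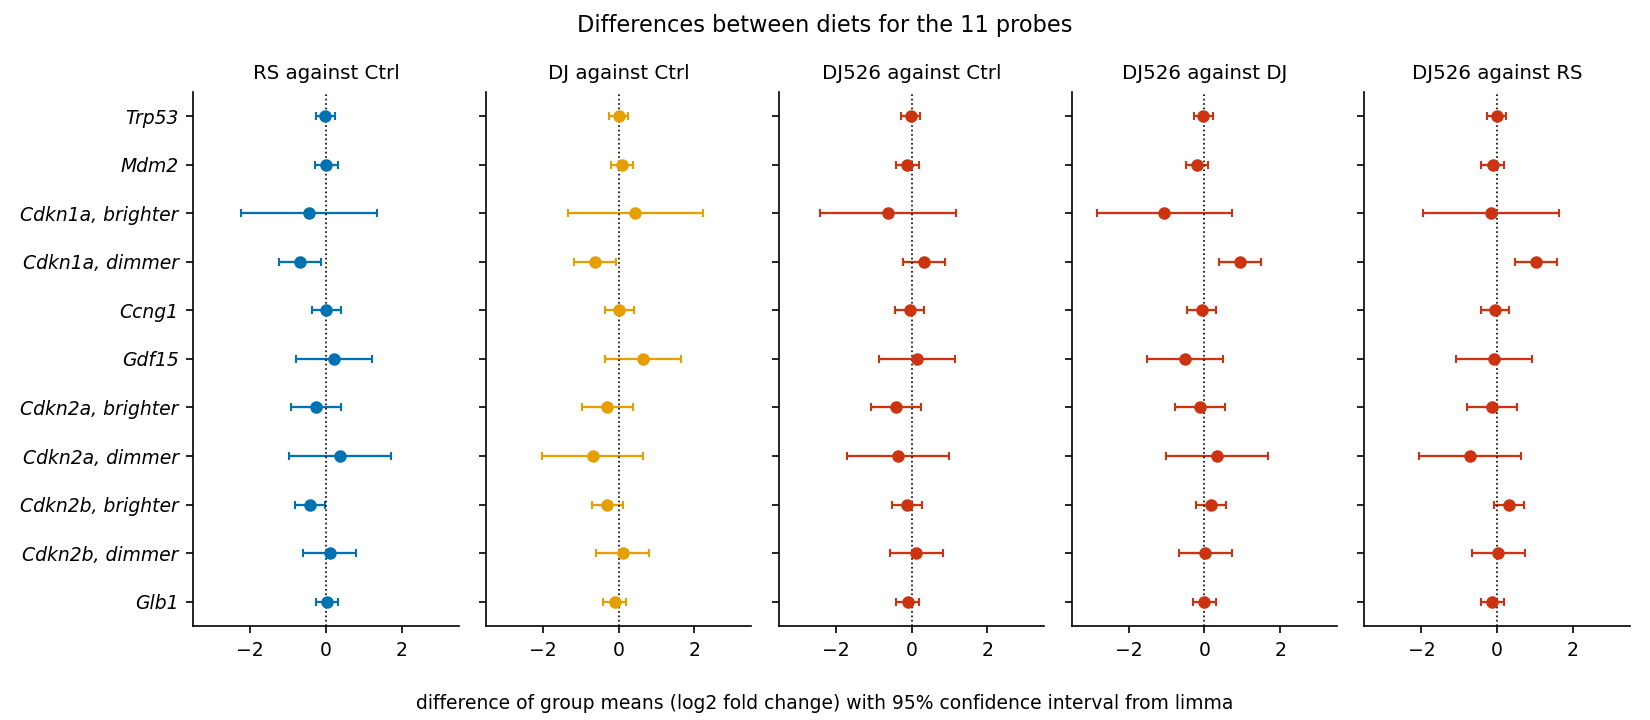
Difference of group means with its 95% confidence interval from limma for the 11 probes in 5 comparisons, in log2 fold change. The dotted line marks no difference. Intervals are narrow around 0 for Trp53, Mdm2, Ccng1 and Glb1 and widest for the brighter Cdkn1a probe, and those of the dimmer Cdkn1a probe exclude 0 in 4 of the comparisons before adjustment over all probes.

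Over the 12 livers, the 8 genes did not follow one another closely. The 28 pairwise Pearson r of their brighter probes ran from -0.56 (Gdf15 with Cdkn2b) to 0.57 (Ccng1 with Glb1), given as a description over mice that share slides and diets. Cdkn1a had r = -0.49 with Trp53, 0.55 with Mdm2, 0.16 with Ccng1 and 0.05 with Gdf15, its fellow targets.

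By the brighter probe of each gene, Cdkn1a and Gdf15 had the widest range of group means, and they were set against all other named genes well above background on every array, 15565 in number. For Cdkn1a the closest were Asap2, a GTPase-activating protein of Arf (Pearson r = 0.89, Spearman rho 0.91), Fbxo44, an F-box protein (0.88 and 0.84), and Igfbp1, a secreted binder of insulin-like growth factors that hepatocytes raise on fasting (0.88 and 0.83). Igfbp1 measured 5.33 in Ctrl replicate 1, where Cdkn1a was lowest, 7.53 in Ctrl replicate 2, where it was highest, and 5.57 in DJ526 replicate 3, where it was next to lowest. Without the 2 mice farthest from the median of Cdkn1a, both Ctrl, the r values were 0.80, 0.68 and 0.79.

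For Gdf15 the closest were Dab2ip, a Ras GTPase-activating protein (r = 0.93, rho 0.90), Gm4952 (0.91 and 0.91) and Cyp4a10, a fatty acid omega-hydroxylase induced through PPAR alpha (0.90 and 0.94). Cyp4a10 was lowest, at 3.75, in Ctrl replicate 3, where Gdf15 was lowest too, and measured 6.08 in DJ replicate 3, where Gdf15 was highest. Cyp4a10 varied over 2.69 log2 units and Dab2ip over 0.33. Without Ctrl replicate 3 and DJ replicate 3 the r values were 0.80, 0.87 and 0.89. These correlations are the highest of 15565 over 12 mice and carry no test.

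**Figure D4:**
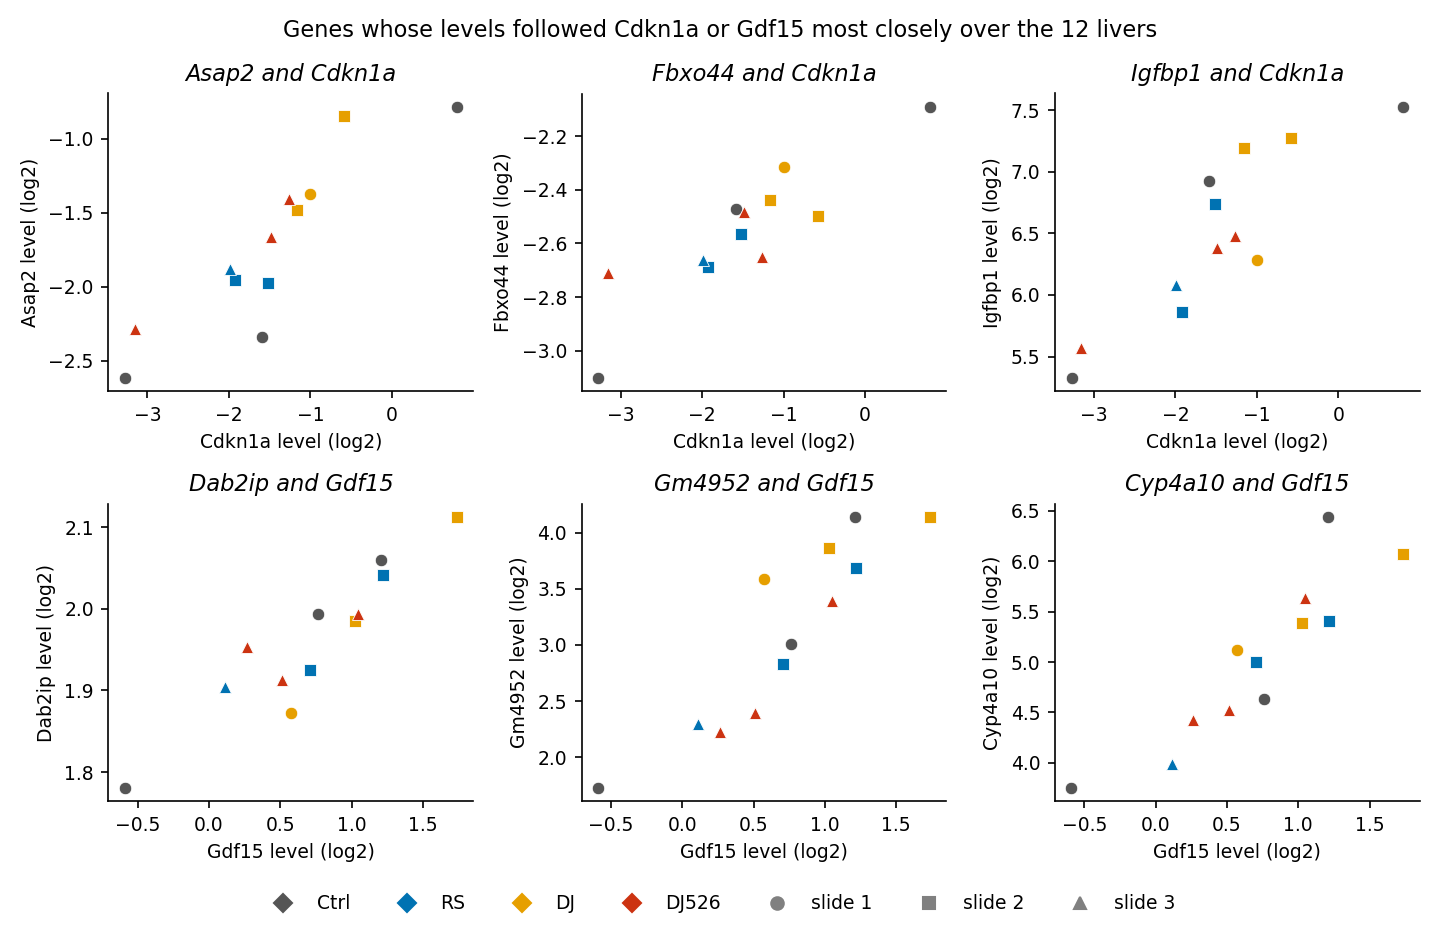
Levels of the 3 genes closest to Cdkn1a (top row) and to Gdf15 (bottom row) against the level of that gene in 12 livers, all in log2 units relative to the 75th percentile of the array. Colour is diet and shape is slide. Mice of 1 diet spread along each diagonal, as the 3 Ctrl mice do from -3.28 to 0.79 on the Cdkn1a axis.

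The pathway around the members was read from 7 lists with 130 entries, all present on the array, taking the brighter probe of each gene. None of these genes was called in any of the 3 comparisons with Ctrl. Among the 17 p53 regulators, 0 rose and 0 fell at an unadjusted p under 0.05 in RS and in DJ, and 1 fell in DJ526, beside 6.00%, 5.22% and 10.8% of all probes. Sirt1, the deacetylase that resveratrol is best known for and that acts on p53, was 0.17 lower in RS than in Ctrl without overlap (SE 0.11, adjusted p = 0.928), and 0.20 higher with the slide as a block. Ep300, the acetyltransferase and coactivator of p53, was 0.20 higher in DJ526 (SE 0.13, adjusted p = 0.590).

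Of 28 other p53 targets, 2 were higher in DJ and 3 higher with 1 lower in DJ526 at an unadjusted p under 0.05, and none passed in RS. The shares of all probes were 5.22% for DJ, 10.8% for DJ526 and 6.00% for RS. Their median difference from Ctrl was -0.04 for RS, -0.02 for DJ and 0.02 for DJ526. Sesn2, a stress-induced inhibitor of mTORC1 that p53 and Atf4 both drive, measured 0.60, 0.52 and 0.31 in Ctrl mice, 0.85, 0.80 and 1.02 in DJ mice and 0.85, 0.64 and 0.72 in DJ526 mice. It was 0.41 higher in DJ (SE 0.11, adjusted p = 0.750) and 0.26 higher in DJ526 (adjusted p = 0.431). Gtse1, a cell cycle protein that restrains p53, was 0.89 higher in DJ526 than in Ctrl (SE 0.32, adjusted p = 0.355), and Psrc1, a mitotic spindle protein, was 0.50 higher in RS (SE 0.32, adjusted p = 0.925). Blocking on slide gave 1.87 for Gtse1 and 1.65 for Psrc1, both resting on DJ replicate 1 and the first also on RS replicate 3. Both probes were dim, close to the brightness of the dimmer Cdkn1a probe. Gtse1 averaged -5.04 in DJ526 and -5.93 in Ctrl, and Psrc1 -5.96 in RS and -6.45 in Ctrl. The summed level of 4 markers of cycling cells was -1.87 to -0.91 in Ctrl mice, -1.05 to -0.29 in RS mice, -1.44 to 0.32 in DJ mice and -1.43 to -0.16 in DJ526 mice, and its part in these values was not tested. In whole liver, fewer cells of a type and less RNA per cell cannot be told apart.

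Among 22 cell cycle inhibitors and members of the retinoblastoma pathway, the medians were 0.03, 0.06 and 0.04, and E2f4 (0.24 in RS, adjusted p = 0.842) and Cdk4 (-0.11 in DJ526, adjusted p = 0.565) differed most from Ctrl without overlap among those well above background. Cbx7 was named after its values were seen, since 1 Ctrl array read it not well above background. It encodes a Polycomb protein known for silencing the Cdkn2a locus. Ctrl mice measured -4.97, -6.38 and -5.61, RS mice -4.35, -3.49 and -3.59, DJ mice -4.15, -4.36 and -4.15, and DJ526 mice -3.69, -3.75 and -4.13, so all 9 mice of the other diets were above the 3 Ctrl mice. Taken singly, the RS, DJ and DJ526 mice did not overlap Ctrl for 10.2%, 9.34% and 20.6% of all probes. The share with all 9 mice above Ctrl was not counted. RS differed from Ctrl by 1.84, DJ by 1.43 and DJ526 by 1.79 (SE 0.33, limma adjusted p = 0.322, 0.650 and 0.121). The slide block gave 1.84, 1.51 and 1.57, and after normexp correction 0.70, 0.48 and 0.70.

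The 22 secretory genes linked to senescence had medians of 0.19, 0.05 and -0.03. At an unadjusted p under 0.05, 2 were higher in RS (6.00% of all probes in either direction), 0 passed in DJ (5.22%), and 1 was higher and 2 lower in DJ526 (10.8%). Cxcl1, a neutrophil-attracting chemokine, was 0.78 higher in RS (SE 0.29, adjusted p = 0.731), Mmp3, a matrix metalloproteinase, 1.20 higher in DJ (SE 0.58, adjusted p = 0.958), and Igfbp5, a secreted growth factor binder, 0.62 lower in DJ526 (SE 0.27, adjusted p = 0.449). Blocking on slide gave 2.06 for Mmp3 and -1.52 for Igfbp5, both resting on DJ replicate 1 and the second also on RS replicate 3. Mmp3 was dim, with means of -4.55 in DJ and -5.76 in Ctrl. Of 6 lymphocyte markers, 5 were above Ctrl for RS, 6 for DJ and 6 for DJ526 (median differences 0.46, 0.60 and 0.90), and limma called none, the lowest adjusted p being 0.132. Their summed levels were 2.04 to 2.28 in Ctrl mice, 2.15 to 2.44 in RS mice, 2.16 to 3.01 in DJ mice and 2.37 to 2.79 in DJ526 mice. Of 5 Kupffer cell markers, 0 were above Ctrl for RS, 0 for DJ and 1 for DJ526, none called, with summed levels of 6.15 to 7.04 in Ctrl mice, 5.84 to 6.33 in RS mice, 5.78 to 6.42 in DJ mice and 5.81 to 6.39 in DJ526 mice. Of 6 stellate cell and fibroblast markers, 5 were above Ctrl for each diet (median differences 0.19, 0.16 and 0.09), none called. Summed, they were 1.54 to 2.02 in Ctrl mice and 1.91 to 2.30 in RS mice. In DJ mice they were 1.82 to 2.50 and in DJ526 mice 1.89 to 1.98. The part of these cell types in the secretory genes was not tested.

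Among 12 nuclear genes linked to senescence, 8, 9 and 11 were above Ctrl in RS, DJ and DJ526. The share of all probes above Ctrl was not counted. At an unadjusted p under 0.05 from limma, 1 was higher in RS (6.00% of all probes in either direction). In DJ 1 was higher (5.22%), and 0 passed in DJ526 (10.8%). Their medians were 0.11, 0.07 and 0.08, beside 0.03, -0.02 and 0.02 over all probes. Lmnb1, the lamin B1 gene whose loss marks senescent cells, measured -2.88, -2.96 and -2.82 in Ctrl and was 0.62 higher in RS and 0.52 higher in DJ (SE 0.19, adjusted p = 0.629 and 0.876), and 0.08 higher in DJ526. The slide block gave 1.02, 0.73 and 0.67. Tert, the telomerase reverse transcriptase, was 0.48 higher in DJ526 (adjusted p = 0.553). With the slide as a block it differed by -1.10, a value that rests on DJ replicate 1 and RS replicate 3. The 17 lysosomal genes beside Glb1 had medians of 0.03, 0.08 and -0.04. Galns, a sulfatase in the complex with Glb1, was 0.43 higher in DJ (SE 0.16, limma adjusted p = 0.920). The 12 genes of the integrated stress response, which shares Gdf15 with p53, had medians of 0.05, 0.12 and 0.01, and Sesn2 stands in this list too.

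**Figure D5:**
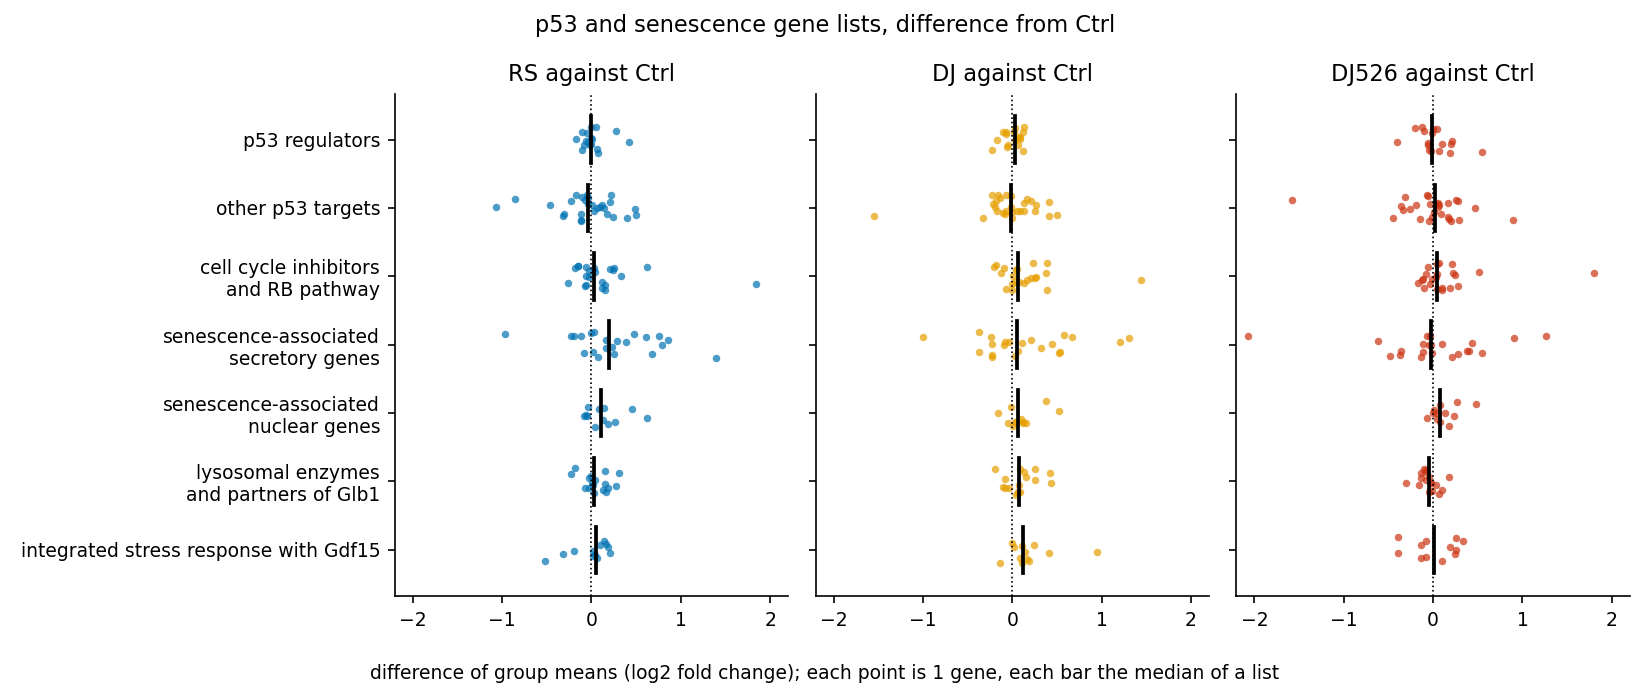
Difference from Ctrl of each gene in the 7 lists around p53 and senescence, in log2 fold change for RS, DJ and DJ526. Each point is 1 gene and each bar the median of its list. The medians lie between -0.04 and 0.19, and Cbx7, at 1.84, 1.43 and 1.79, is the point farthest to the right in each panel.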

How the data were processed

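Total liver RNA of 12 mice was labelled in 1 colour and hybridised to 12 Agilent mouse arrays. The labels name Trizol for extraction and the study's methods name an RNeasy kit. The deposited files hold the intensity of each spot, which the authors' Feature Extraction software (version 11.5.1.1) had background-subtracted and detrended but not normalized between arrays. No label gives a cage, so the array is the replicate.

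Spots flagged as outliers were left out, spots of 1 probe were averaged, and log2 values were set against the 75th percentile of each array. Group means were fitted over 39429 probes with limma 3.58.1 (R 4.3.3, eBayes with trend), with Benjamini-Hochberg adjustment and a threshold of 0.05, after a check on simulated data. A p in the text is from this model, or from the same model with a slide or replicate block where the text names one, and counts by the methods' criteria use their t-test. Plots used matplotlib 3.10.9. Accessions gave a symbol to 27508 probes through RefSeq (GRCm38.p6), and 11921 stayed unnamed. Where probes shared a gene, the brighter one was used.

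The members and lists were chosen with earlier results of these data known. From each list, the text names the gene with the largest difference from Ctrl per diet among those well above background in both groups without overlap. One gene that this rule names is not reported here. Alternatives were normexp (offset 50, on the median pixel), quantile, median and authors' scaling, a filter on dim probes, kept outliers, eBayes without trend, pairs of groups alone, slide or replicate blocks, the methods' t-test and Z ratio, each mouse left out and, added after seeing the data, RS and DJ exchanged. Replicate numbers did not pair mice (r of deviations -0.273 to 0.258, with 4 of 18 pairs over 0.1). The number of arrays limits the precision.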

Additional observations from a re-analysis of the deposited data

Results flagged for a closer look

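On the dimmer Cdkn1a probe, RS against Ctrl and DJ526 against DJ had opposite signs, and neither was called (limma adjusted p = 0.717 and 0.280). DJ526 is a transgenic line, so its difference from DJ need not be that of resveratrol alone. Every RS mouse was below every Ctrl mouse and every DJ526 mouse above every DJ mouse. Mice did not overlap in these comparisons for 10.2% and 18.4% of all probes. The difference of the resveratrol effects, as defined above, was 1.64 on the log2 scale (95% interval 0.86 to 2.42, limma adjusted p = 0.428). It was 0.89 with the slide as a block and 0.22 after normexp correction, and the part of the slide in it was not tested. The brighter Cdkn1a probe, spotted 10 times, gave -0.60 (SE 1.15, limma adjusted p = 0.975) for the same difference.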

How the results depend on the processing

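In 23 limma refits, 0 member probes were called. The methods' t-test at an unadjusted p under 0.05 picked 1 member probe each for RS, DJ and DJ526 against Ctrl, for DJ526 against DJ and for DJ against RS, and 2 for DJ526 against RS. It picked 2.78% (DJ against RS) to 12.8% (DJ526 against Ctrl) of all probes. The methods' Z ratio criterion picked 1 each for RS and DJ against Ctrl, DJ526 against DJ, DJ526 against RS and DJ against RS, and 0 for DJ526 against Ctrl. Of all probes it picked 1.07% (DJ against RS) to 3.87% (DJ526 against Ctrl). The other Cdkn2b probe turned RS against Ctrl to 0.10 and the difference of the resveratrol effects to -0.068, and the cause was not tested. Of 2469 member values, 265 changed sign and 59 moved by more than the replicate spread. These values include the exchange of RS and DJ, which reverses DJ against RS by definition. They also include settings that cannot move a difference, such as eBayes without trend, the replicate block and pairs of groups alone. Both counts were thus partly fixed in advance. Among 462 values of the named list genes, 2 changed sign, Sirt1 and Tert with the slide as a block. Normexp shifted the median of all probes by -0.113 for DJ526 against DJ.

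With the replicate number as a block, 0 member probes were called. Each diet held the same replicate numbers, so this block could change the spread but not a difference. The difference of the resveratrol effects on the dimmer Cdkn1a probe therefore stayed 1.64 (limma adjusted p = 0.638). Leaving out 1 mouse at a time gave 1.46 to 1.85 for that value, and 0.13 to 1.02 for Gdf15 in DJ against Ctrl. Signal over background limits the dimmer probes of Cdkn1a, Cdkn2a and Cdkn2b, and the dim probes of Gtse1, Psrc1, Mmp3 and Cbx7.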
